A study of Mus musculus with 8 samples.

Results

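The genes described here are 10 leukocyte adhesion molecules and integrins: Icam1, Vcam1, the integrin chains Itga4, Itga5, Itgal, Itgax, Itgb1 and Itgb2, the selectin ligand Selplg and the hyaluronan receptor Cd44. They were taken by gene symbol from a table of 55801 genes, in which each symbol had 1 row. RNA was sequenced from peritoneal macrophages of male C57BL/6 mice 6 to 8 weeks old, drawn into the abdominal cavity by thioglycollate and harvested 72 h later. The 4 groups had 2 samples each: NC received the vehicle DMSO alone, LPS received vehicle and then lipopolysaccharide, from the outer membrane of Gram-negative bacteria, at 100 ng/ml for 4 h, C498 received the small molecule C498 at 15 µM, and C498+LPS received C498 for 0.5 h before the same LPS treatment. The study examined C498 as an inhibitor of JAK/STAT and NF-kappaB signaling, and the comparisons ask how LPS changed the cells, how C498 changed that response, and what C498 did without LPS. Neither the labels nor the methods say that the 2 samples of a group came from separate mice or cultures, so p-values measure only the spread between these samples, which may be technical.

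Leukocytes leave the blood and move through tissue by a chain of adhesive contacts. Selectins catch mucin-like ligands such as PSGL-1, the product of Selplg. Integrins, which are pairs of an α and a β chain held inactive until signals inside the cell open them, then bind ligands of the immunoglobulin family such as ICAM-1 and VCAM-1 or proteins of the extracellular matrix. On macrophages the same receptors also serve attachment to matrix, cell to cell contact and uptake of particles, and CD44 binds hyaluronan, a sugar polymer of the matrix.

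Levels are given in TPM, which scales every sample to the same total and is corrected for transcript length, so levels of different genes can be set side by side. The read number behind a TPM value is unknown. All 10 genes passed the filter on low values (mean TPM of 1 or more over all samples), and 12189 genes were tested. Changes are log2 differences of TPM + 1 from limma over all 8 samples, and adjusted p is by the Benjamini-Hochberg method over the 12189 genes. A gene was called upregulated or downregulated (a DEG) at a fold change of at least 2 on this scale with an adjusted p of at most 0.05. Adding 1 draws changes of low genes towards 0, which among the 10 touches Vcam1 and Itga4 most. Under LPS the median log2 change of all genes was -0.17 in vehicle-treated cells and -0.18 in C498-treated cells, and changes under LPS can be read against that shift. In RNA from a mixed cell suspension, fewer cells of a type and less RNA per cell cannot be told apart.

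The markers of the labelled cell type were high, with a summed level of 10 macrophage markers between 12346 and 20439 TPM. That sum was lower in C498 than in NC (0.785 of the NC mean) and lower in C498+LPS than in LPS (0.732 of the LPS mean). Markers of fibroblasts and mesothelial cells, which line and support the peritoneum, were higher with C498. The 7 fibroblast markers summed to between 151 and 193 TPM in NC, 184 and 210.1 TPM in LPS, 634 and 751 TPM in C498, and 620.04 and 912 TPM in C498+LPS. The 6 mesothelial markers summed to 5.03 to 6.5 TPM in NC, 5.46 to 6.51 TPM in LPS, 17.4 to 24.4 TPM in C498 and 17.8 to 29.4 TPM in C498+LPS. Among the 6 fibroblast markers tested, 5 were upregulated in C498 vs NC, and 4 were upregulated and 1 downregulated in C498+LPS vs LPS, while Lum stayed at or below 0.28 TPM in every sample. Among the 5 mesothelial markers tested, 2 and 3 were upregulated, and Msln stayed at or below 1.52 TPM. Of all tested genes, 7.0% were called in C498 vs NC and 7.57% in C498+LPS vs LPS. Neither group of C498-treated samples overlapped its vehicle-treated counterpart in these sums. The 8 T cell markers summed to at most 6.13 TPM and the 6 endothelial markers to at most 5.99 TPM in any sample, and of the 10 neutrophil markers Ngp and Elane were listed at 0 in all samples. The neutrophil markers S100a9, Cxcr2, Ltf and Mpo stayed at or below 0.86 TPM in every sample, and Ly6g was above 0 only in C498 replicate 2. The neutrophil markers summed to between 52.6 and 135 TPM, most of it from S100a8 (48.9 to 128 TPM). Among them Retnlg was downregulated in C498 vs NC (log2 change -1.64, adjusted p = 0.00975) and also in C498+LPS vs LPS (-1.78, adjusted p = 0.00607). The 7 B cell markers summed to 18.0 to 25.02 TPM in NC, 24.7 to 25.1 TPM in LPS, 42.5 to 54.7 TPM in C498 and 41.7 to 120.2 TPM in C498+LPS.

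The 10 genes lie on 8 chromosomes, and their positions are those of GENCODE M21 on GRCm38, as the sources used here do not give the authors' build. Itgal and Itgax lie on chromosome 7 with the other β2-pairing α genes, Itgal at chr7:127296260-127335138 and Itgax at chr7:128129547-128150657, the latter between Itgam (chr7:128062640-128118491) and Itgad (chr7:128154376-128223816), all on the plus strand. Promoter windows of RefSeq on GRCm38.p6, covering the 250 bases before the transcription start, were found for 6 of the 10 genes (Icam1, Itga4, Itga5, Itgax, Itgb1 and Cd44). They were searched on both strands for 6 motifs, chosen after the windows had been seen. Distances are counted from the RefSeq start, which lies 45 bases before the GENCODE start for Icam1 and 28 for Itga5. Shown are the windows of the 3 genes that had one and were upregulated in LPS vs NC, from 5′ to 3′ on the gene's strand, with matches to a motif in capitals.
Icam1 (chr9:21015690-21015939, plus strand): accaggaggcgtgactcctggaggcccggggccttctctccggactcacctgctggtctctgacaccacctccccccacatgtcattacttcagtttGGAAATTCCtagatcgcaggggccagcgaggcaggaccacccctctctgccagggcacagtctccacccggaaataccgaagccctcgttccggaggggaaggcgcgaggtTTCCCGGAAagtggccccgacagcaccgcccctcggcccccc
Cd44 (chr2:102901666-102901915, minus strand): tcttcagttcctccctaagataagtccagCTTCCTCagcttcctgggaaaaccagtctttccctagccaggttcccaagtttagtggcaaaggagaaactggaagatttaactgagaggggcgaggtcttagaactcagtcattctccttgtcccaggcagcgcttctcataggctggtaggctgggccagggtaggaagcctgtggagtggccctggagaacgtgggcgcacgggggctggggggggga
Itga5 (chr15:103366792-103367041, minus strand): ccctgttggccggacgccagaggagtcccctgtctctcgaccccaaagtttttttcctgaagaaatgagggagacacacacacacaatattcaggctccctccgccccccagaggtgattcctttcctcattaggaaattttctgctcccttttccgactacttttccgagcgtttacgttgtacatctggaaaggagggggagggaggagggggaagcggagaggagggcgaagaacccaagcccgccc

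In the Icam1 window the first run of capitals, 153 to 145 bases before the start, matches the kappaB-like letters GGANTTTCC on the opposite strand, a motif present in 1.07% of 32851 windows of the same length. The second run, 42 to 34 bases before the start, matches the STAT letters TTCNNNGAA, present in 7.02% of windows. The capitals in the Cd44 window, 221 to 215 bases before the start, match the ETS letters GAGGAAG on the opposite strand, present in 10.6% of windows. The Itga5 window held no match to any of the 6 motifs. Of the other 3 windows, that of Itgax matched the AP-1 letters TGANTCA 56 to 50 bases before the start, a motif in 6.75% of windows. The full NF-kappaB consensus, in 3.90% of windows, and the C/EBP letters TTGCNNNAA, in 8.29%, were not found in any of the 6. No match overlapped another. A match describes letters only and shows neither binding nor use of the site.

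In LPS vs NC, Icam1, Vcam1, Cd44 and Itga5 were upregulated and none of the 10 was downregulated by the call. These 4 of 10 stand beside 12.2% of all tested genes called in either direction and 5.55% called upregulated. Within C498-treated cells (C498+LPS vs C498) only Icam1 and Vcam1 of the 10 were called, both upregulated, beside 5.64% of all genes. With C498 ahead of LPS (C498+LPS vs LPS), Vcam1 was upregulated and Itgal downregulated, beside 7.57% of all genes. In C498 vs NC, Vcam1 alone of the 10 was upregulated, beside 7.0% of all genes. By adjusted p alone, at any fold change, 7, 4, 3 and 4 of the 10 passed in these comparisons, beside 29.6%, 16.2%, 16.8% and 15.5% of all genes. These comparisons share samples with one another, so their calls are not independent.

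**Figure D1:**
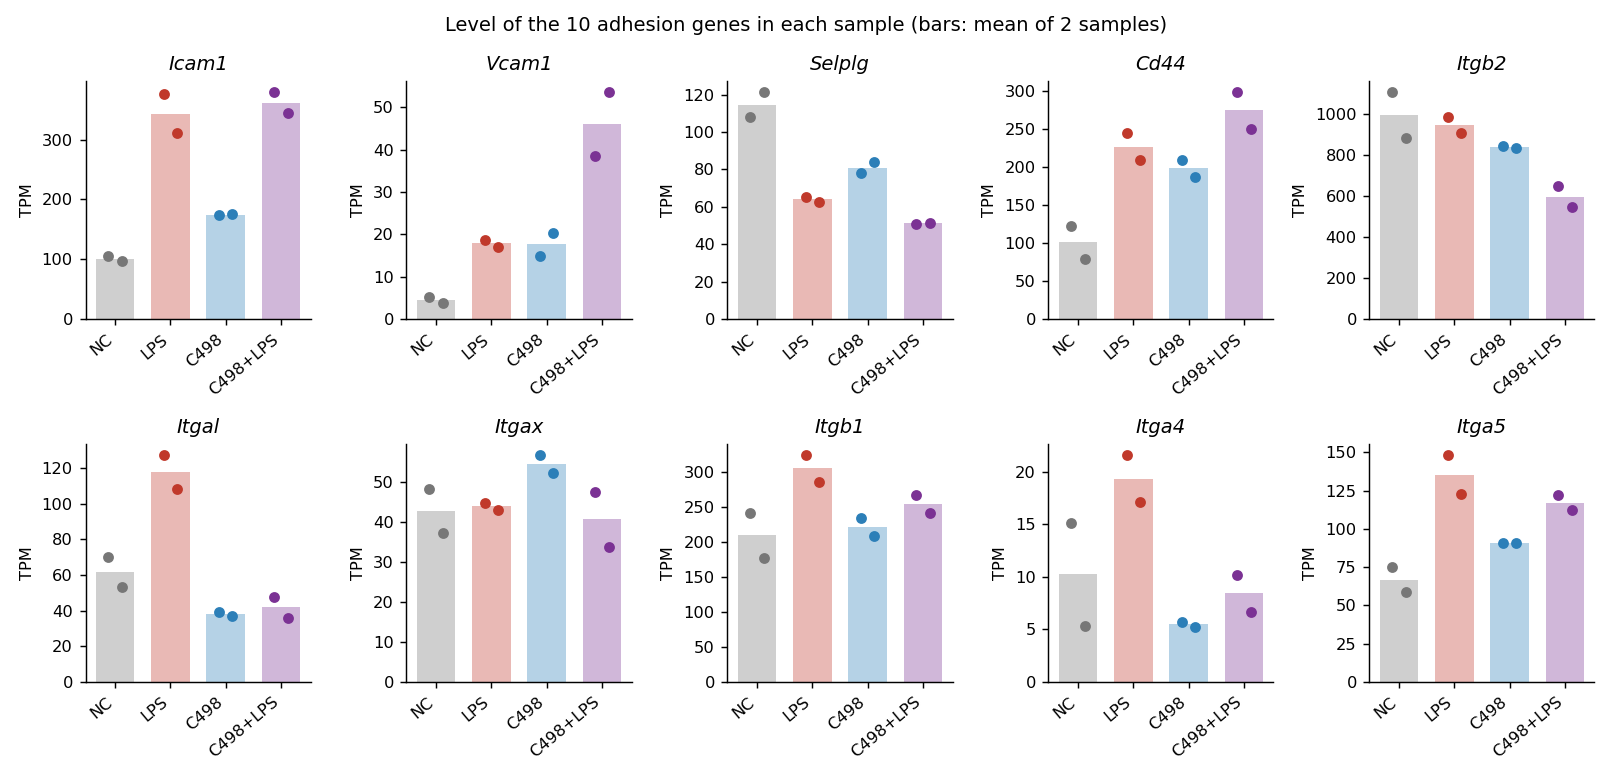
Level of each of the 10 genes in TPM (vertical axes, linear, each starting at 0) in the 4 groups, with points for the 2 samples and bars for their mean. Icam1 stood at 106 and 97.0 TPM in NC and at 311 TPM or more in both LPS-treated groups, Vcam1 was highest in C498+LPS at 38.5 and 53.5 TPM, and Itgal was highest in LPS at 127 and 108 TPM.

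Icam1 (chr9:21015985-21028817, plus strand) encodes ICAM-1, the ligand of the β2 integrins LFA-1 and Mac-1 on neighbouring leukocytes. Its level was 106 and 97.0 TPM in NC, 376 and 311 TPM in LPS, 173 and 176 TPM in C498, and 379 and 345 TPM in C498+LPS. LPS raised it in both settings without overlap, whereas the LPS and C498+LPS samples overlapped each other. Icam1 rose 3.39-fold in mean TPM in LPS vs NC, a log2 change of 1.75 ± 0.11 (SE, n = 2 per group, adjusted p = 7.8e-05). The rise in C498+LPS vs C498 was 2.07-fold (log2 change 1.04 ± 0.11, adjusted p = 0.00167). That call sat near the fold threshold and was lost without C498+LPS replicate 1 (log2 change 0.98). The starting level differed: C498 stood above NC by a log2 change of 0.78 (adjusted p = 0.0059), below the fold threshold, and with either C498 sample left out the adjusted p was 0.0579 or 0.0577. Between the LPS-treated groups (C498+LPS vs LPS) the log2 change was 0.08 with a 95% confidence interval from -0.19 to 0.34 (adjusted p = 0.695). The difference between the 2 LPS responses was a log2 change of -0.70 (95% interval -1.08 to -0.33) with an adjusted p of 0.156 for the interaction, which did not pass.

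Vcam1 (chr3:116109949-116129688, minus strand) encodes VCAM-1, the ligand of the integrin α4β1. Its level was 5.3 and 3.85 TPM in NC, 18.7 and 17.1 TPM in LPS, 14.9 and 20.4 TPM in C498, and 38.5 and 53.5 TPM in C498+LPS. NC samples lay below and C498+LPS samples above all others, while LPS and C498 overlapped. It was the only one of the 10 called in all 4 pairwise comparisons, with a mean TPM that was 3.92-fold higher in LPS vs NC, 3.86-fold higher in C498 vs NC, 2.61-fold higher in C498+LPS vs C498 and 2.57-fold higher in C498+LPS vs LPS. The corresponding log2 changes were 1.78 ± 0.23 (SE, adjusted p = 0.00162), 1.74 ± 0.23 (0.00416), 1.33 ± 0.23 (0.0104) and 1.29 ± 0.23 (0.0101). The interaction was -0.44 with a 95% interval from -1.20 to 0.31 (adjusted p = 0.673).

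The Vcam1 calls differed in how far they rested on single samples. The LPS vs NC call remained whichever sample was left out. Its log2 change in C498+LPS vs LPS stayed at 1.06 or more, but the call was lost without LPS replicate 1 (adjusted p = 0.0683), LPS replicate 2 (0.0827) or C498+LPS replicate 2 (0.0863). The call in C498+LPS vs C498 was lost without C498 replicate 1 (adjusted p = 0.0906) or C498+LPS replicate 2 (0.0789). That in C498 vs NC was lost when only those 2 groups were fitted (adjusted p = 0.0534).

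Fibroblast and mesothelial cells also express Vcam1, and the sums of their markers moved with it in the C498 comparisons. Not every marker did, as Pdgfrb was downregulated in C498+LPS vs LPS (log2 change -1.81, adjusted p = 0.00226). The fibroblast sum was 4.03 times as high in C498 as in NC and 3.89 times as high in C498+LPS as in LPS, and the mesothelial sum 3.63 and 3.94 times. Their part in the Vcam1 change with C498 was not tested. In LPS vs NC, where Vcam1 was 3.92-fold higher, the fibroblast sum was 1.15 times and the mesothelial sum 1.04 times the NC mean, and 1 of the 7 fibroblast markers, Pdgfrb, was upregulated (log2 change 2.68, adjusted p = 0.000184). The same ratios in C498+LPS vs C498 were 1.11 and 1.13.

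**Figure D2:**
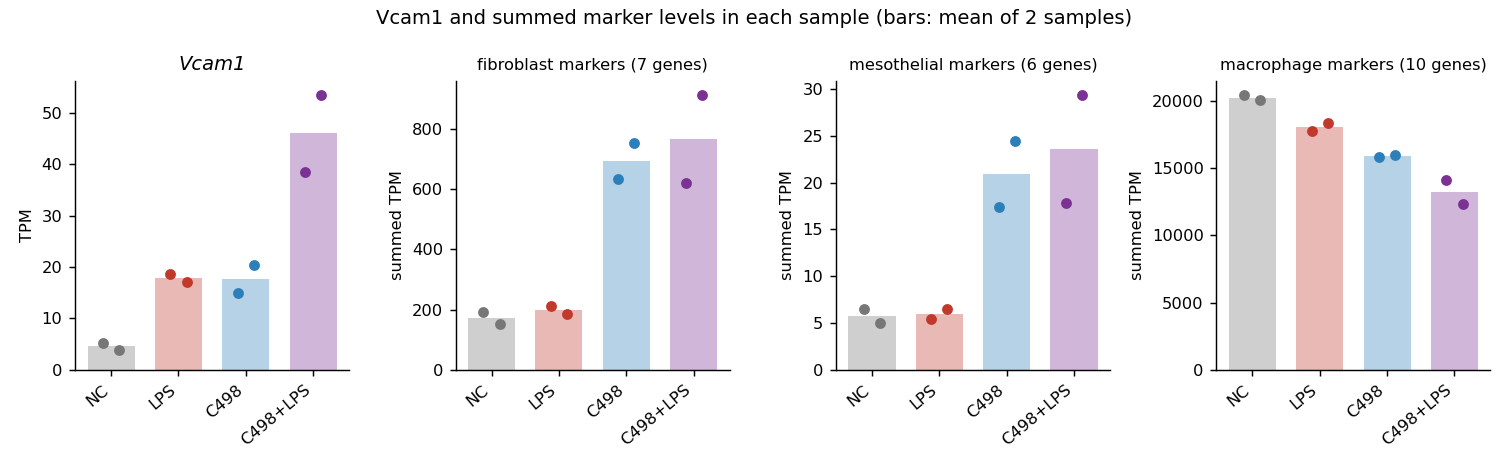
Vcam1 level in TPM and summed TPM of the fibroblast, mesothelial and macrophage marker lists (vertical axes, linear, starting at 0) in the 4 groups, with points for the 2 samples and bars for their mean. The fibroblast and mesothelial sums were higher in both C498-treated groups, at 620.04 to 912 TPM for fibroblast markers, while the LPS samples at 184 and 210.1 TPM lay near NC and Vcam1 in LPS was 18.7 and 17.1 TPM.

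Itgb2 (chr10:77530252-77565708, plus strand) encodes the β2 chain, which pairs with the products of Itgal, Itgam, Itgax and Itgad, and it was the most abundant of the 10, at rank 199 of the 12189 genes by mean TPM. Its level was 1104 and 883 TPM in NC, 984 and 909 TPM in LPS, 842 and 835 TPM in C498, and 647 and 546 TPM in C498+LPS. The C498+LPS samples were the lowest and overlapped no other group, whereas NC and LPS overlapped. The log2 change in C498+LPS vs LPS was -0.67 ± 0.13 (SE, adjusted p = 0.0144) and in C498+LPS vs C498 it was -0.50 ± 0.13 (adjusted p = 0.0429). Both passed the adjusted p without reaching the fold threshold. The second fell short of it under 10 of 16 alternatives, with a log2 change of -0.28 when each sample was centred on its median gene (adjusted p = 0.16), and the first under 3, with an adjusted p of up to 0.111 without LPS replicate 1. Over the same pairs the macrophage marker sum was 0.732 and 0.833 of its comparison group, and its part in the Itgb2 values was not tested. LPS vs NC gave a log2 change of -0.06 (95% interval -0.37 to 0.24, adjusted p = 0.759), and Itgb2 turned in sign there when each sample was centred on its median gene (0.11).

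Itgal encodes the αL chain, which with β2 forms LFA-1, a receptor for ICAM-1. Its level was 70.0 and 53 TPM in NC, 127 and 108 TPM in LPS, 39.2 and 36.9 TPM in C498, and 47.9 and 35.7 TPM in C498+LPS. The LPS samples were above all others, and the C498 and C498+LPS samples overlapped each other below NC. Itgal fell to 0.355 of the LPS mean in C498+LPS vs LPS, a log2 change of -1.48 ± 0.19 (SE, adjusted p = 0.00288), and this call was kept whichever sample was left out and in every other setting tried. It was the only downregulated gene among the 10 in that comparison, where 2.18% of all genes were downregulated. Its log2 change in LPS vs NC was 0.93 ± 0.19 (adjusted p = 0.00956), just under the fold threshold. It was called there when samples were centred on their median gene (1.10, adjusted p = 0.00131), without NC replicate 1 (1.13, adjusted p = 0.0114) and without LPS replicate 2 (1.05, adjusted p = 0.0386). It was lowest with NC replicate 2 left out (0.74), and its adjusted p rose above 0.05 with LPS replicate 1 left out (0.82, adjusted p = 0.0763). For C498+LPS vs C498 it was 0.12 (95% interval -0.32 to 0.55, adjusted p = 0.71). The interaction of -0.81 had an interval from -1.43 to -0.20 and an adjusted p of 0.327. C498 vs NC gave a log2 change of -0.67 (adjusted p = 0.0524). Neutrophils and lymphocytes also carry LFA-1. The summed level of 10 neutrophil markers, most of it from S100a8, was 0.698 of the LPS mean in C498+LPS (81.6 and 72.3 TPM, beside 97.6 and 123 TPM in the LPS samples). Within it S100a8 was at 0.733, Camp at 0.163 and Retnlg at 0.126 of the LPS mean. Retnlg alone of the 3 was called (adjusted p = 0.269 for S100a8 and 0.0736 for Camp). The B cell sum moved the other way, to 3.25 times the LPS mean, and Ighm, the gene of the IgM heavy chain, was upregulated (log2 change 1.59, adjusted p = 0.0484) at 37.2 and 106 TPM in the C498+LPS samples. The T cell markers were low in all samples, and the part of these markers in the Itgal change was not tested.

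Itgax encodes the αX chain (CD11c), carried by dendritic cells and many tissue macrophages. Its level was 48.4 and 37.4 TPM in NC, 44.9 and 43.1 TPM in LPS, 56.9 and 52.4 TPM in C498, and 47.7 and 33.8 TPM in C498+LPS. The C498 samples were highest, and the other 3 groups overlapped. Its largest log2 change was -0.43 in C498+LPS vs C498 (95% interval -0.87 to 0.0038, adjusted p = 0.16). The summed level of 7 dendritic cell markers, carried mostly by Ccr7, was 13.5 and 10.7 TPM in NC, 18.6 and 17.1 TPM in LPS, 34.0 and 39.7 TPM in C498, and 50.04 and 117 TPM in C498+LPS, an order that Itgax did not follow. Itgam, which encodes the αM chain of Mac-1 and is given for comparison, stood at 301 and 191 TPM in NC, 236 and 204 TPM in LPS, 250.5 and 226 TPM in C498, and 169.7 and 119 TPM in C498+LPS. Its log2 change was -0.74 in C498+LPS vs C498 (adjusted p = 0.0785) and -0.62 in C498+LPS vs LPS (adjusted p = 0.128).

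The make-up of the β2-pairing α transcripts can be read within each sample, from ratios that do not depend on scaling between samples. Itgal made up 16.7% and 18.8% of the summed TPM of Itgal, Itgam, Itgax and Itgad in NC, 31.2% and 30.4% in LPS, 11.3% and 11.7% in C498, and 18.0% and 19.0% in C498+LPS. Its share was therefore highest in LPS and lowest in C498, with C498+LPS overlapping NC. Itgax made up 11.5% and 13.3% in NC, 11% and 12.2% in LPS, 16.4% and 16.6% in C498, and 18.0% in both C498+LPS samples, higher with C498 in each case. Itgad stayed under 0.1% in all samples. With 2 samples a group, an exact permutation test of such a share cannot give a two-sided p below 0.333.

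**Figure D3:**
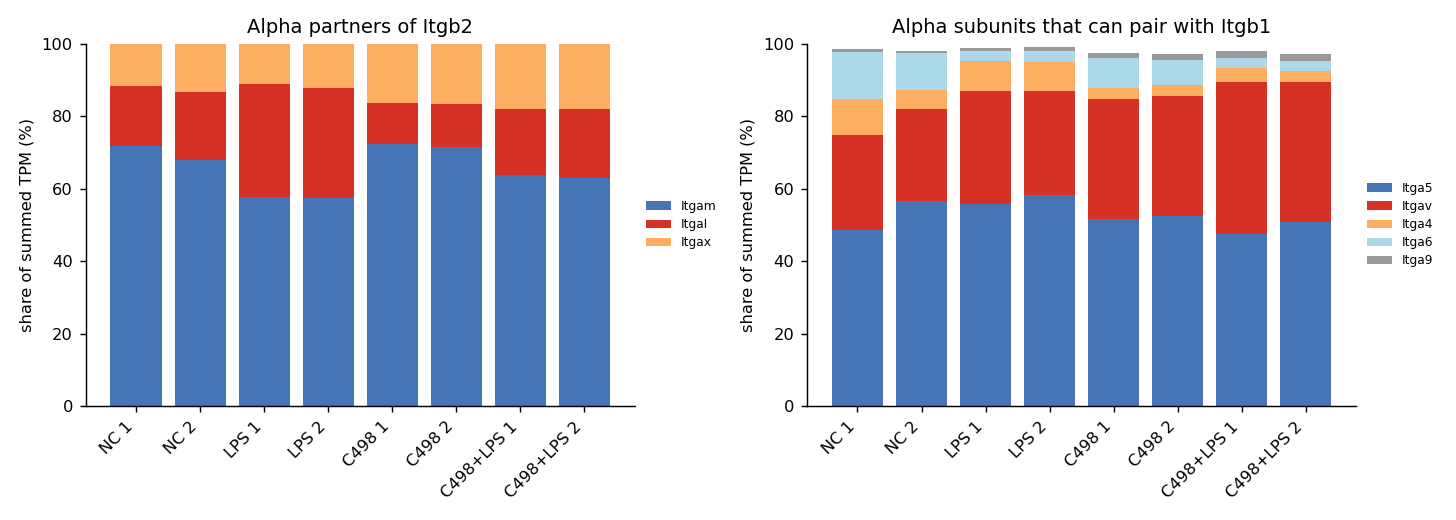
Share of summed TPM in % (vertical axes from 0 to 100) of the α chain genes that pair with Itgb2 (left) and of 5 of the 12 α chain genes that can pair with Itgb1 (right), with 1 stacked bar per sample. Itgal took 31.2% and 30.4% of the β2 sum in LPS against 18.0% and 19.0% in C498+LPS, and Itgav took 41.9% and 38.7% of the β1 sum in C498+LPS.

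Itgb1 (chr8:128685654-128733200, plus strand) encodes the β1 chain of the matrix and VCAM-1 receptors. Its level was 242 and 177 TPM in NC, 325 and 287 TPM in LPS, 234 and 209.4 TPM in C498, and 268 and 241 TPM in C498+LPS. LPS samples were the highest and did not overlap any other group. Its log2 change in LPS vs NC was 0.56 ± 0.16 (SE, adjusted p = 0.0355), below the fold threshold, and no other comparison passed the adjusted p. It fell to 0.33 when NC replicate 2 was left out and rose to 0.78 when NC replicate 1 was, and under 11 of 16 alternatives the adjusted p was above 0.05, reaching 0.186 without LPS replicate 1.

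Itga4 (chr2:79255426-79333123, plus strand) encodes the α4 chain, which pairs with β1 to bind VCAM-1 and fibronectin, and it was the lowest of the 10. Its level was 15.1 and 5.32 TPM in NC, 21.6 and 17.1 TPM in LPS, 5.71 and 5.23 TPM in C498, and 10.2 and 6.68 TPM in C498+LPS. The NC samples differed 2.84-fold from each other, the widest spread between replicates of any of the 10, and spanned both C498+LPS samples. The LPS samples were above all others. The log2 changes of 1.00 ± 0.41 (SE) for LPS vs NC and -1.13 ± 0.41 for C498+LPS vs LPS each had an adjusted p of 0.114 and were not called. Leaving out NC replicate 2 lowered the first to 0.32 (adjusted p = 0.395), and leaving out C498+LPS replicate 2 brought the second to -0.86. Without NC replicate 1 the gene was called in both, at log2 changes of 1.68 and -1.13 (adjusted p = 0.00915 and 0.0205), and without NC replicate 2 it was called in C498+LPS vs LPS (adjusted p = 0.0199) and also in C498 vs NC (log2 change -1.32, adjusted p = 0.0394). Itga4 was also called in LPS vs NC with centring on the median gene (1.17, adjusted p = 0.0381), with quantile normalization (1.13, adjusted p = 0.0412) and in a blocked fit by replicate number (1.00, adjusted p = 0.0385). The same settings called it for C498+LPS vs LPS, at -1.20 (adjusted p = 0.0441), -1.17 (adjusted p = 0.0484) and -1.13 (adjusted p = 0.0387). With all samples the log2 change in C498 vs NC was -0.64 (adjusted p = 0.327).

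Itga5 (chr15:103344286-103366763, minus strand) encodes the α5 chain, which with β1 forms the classical fibronectin receptor. Its level was 75.0 and 58.7 TPM in NC, 148 and 123 TPM in LPS, 91.0 TPM in both C498 samples, and 122 and 112 TPM in C498+LPS. No group overlapped its neighbour in the order NC, C498, C498+LPS, LPS. Itga5 rose 2.03-fold in LPS vs NC, a log2 change of 1.01 ± 0.14 (SE, adjusted p = 0.00249). It stood at the fold threshold and fell below it without NC replicate 2 (0.84), without LPS replicate 1 (0.88) and with quantile normalization (0.99), each with an adjusted p under 0.05. The log2 change in C498+LPS vs C498 was 0.36 (adjusted p = 0.135), and the interaction of -0.65 had an interval from -1.13 to -0.18 and an adjusted p of 0.31.

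The ratio of Itga5 to Itga4, whose products both bind fibronectin, was read within each sample. Itga5 exceeded Itga4 by 4.95 and 11 times in NC, 6.88 and 7.18 times in LPS, 15.9 and 17.4 times in C498, and 12.01 and 16.8 times in C498+LPS. Both C498-treated groups lay above all vehicle-treated samples, while the NC samples spanned both LPS samples. The ratio rests on low Itga4 levels, which differed 2.84-fold between the NC samples, and it was not tested. Fn1, the gene of fibronectin itself, stood at 147 and 92.3 TPM in NC, 146 and 132 TPM in LPS, 368 and 408 TPM in C498, and 343 and 463 TPM in C498+LPS. It was upregulated in C498 vs NC (log2 change 1.73, adjusted p = 0.00428) and in C498+LPS vs LPS (1.51, adjusted p = 0.00563), alongside the fibroblast and mesothelial marker sums given above, whose part in it was not tested.

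Selplg (chr5:113818536-113832644, minus strand) encodes PSGL-1, the main ligand of P-selectin on leukocytes. Its level was 108 and 121 TPM in NC, 65.3 and 62.6 TPM in LPS, 78.1 and 83.7 TPM in C498, and 50.9 and 51.5 TPM in C498+LPS. No group overlapped its neighbour in the order C498+LPS, LPS, C498, NC. Both samples of the treated group lay below both samples of the group compared in all 4 pairwise comparisons, which held for none of the other 9. The LPS mean was 0.559 of the NC mean in TPM, a log2 change of -0.83 ± 0.10 (SE, adjusted p = 0.00122). The log2 change was -0.65 (adjusted p = 0.00677) in C498+LPS vs C498, -0.49 (adjusted p = 0.0189) in C498 vs NC and -0.32 (adjusted p = 0.0709) in C498+LPS vs LPS. None reached the fold threshold, and in C498+LPS vs C498 centring on the median gene gave -0.44 (adjusted p = 0.127). The adjusted p in C498 vs NC was above 0.05 with only those 2 groups fitted (0.0829) and with C498 replicate 1 (0.123) or C498 replicate 2 (0.0806) left out, and that in C498+LPS vs C498 with C498 replicate 2 left out (0.0654).

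Cd44 (chr2:102811141-102901665, minus strand) encodes the main receptor for hyaluronan. Its level was 123 and 79.3 TPM in NC, 245 and 209 TPM in LPS, 209.6 and 187 TPM in C498, and 298 and 250.4 TPM in C498+LPS. NC samples were below and C498+LPS samples above all others, while C498 and LPS overlapped. Cd44 rose 2.24-fold in LPS vs NC (log2 change 1.19 ± 0.21, SE, adjusted p = 0.00555). That call was lost without NC replicate 2 (log2 change 0.88), without LPS replicate 1 (adjusted p = 0.0521) and when only those 2 groups were fitted (adjusted p = 0.0502). The C498 mean was 1.96-fold the NC mean with a log2 change of 0.996 (adjusted p = 0.0211), just under the fold threshold and over it with a pseudocount of 0.1 (1.00), quantile normalization (1.06) or without NC replicate 1 (1.31). The adjusted p of that change was above 0.05 under 5 of 16 alternatives: no filter on low values (0.0619), only those 2 groups fitted (0.0998), and with NC replicate 2 (log2 change 0.68, adjusted p = 0.0522), C498 replicate 1 (0.142) or C498 replicate 2 (0.0995) left out. The log2 change in C498+LPS vs C498 was 0.46 (95% interval -0.02 to 0.95, adjusted p = 0.172). Fibroblasts also carry CD44, and the part of their markers in the C498 values was not tested.

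**Figure D4:**
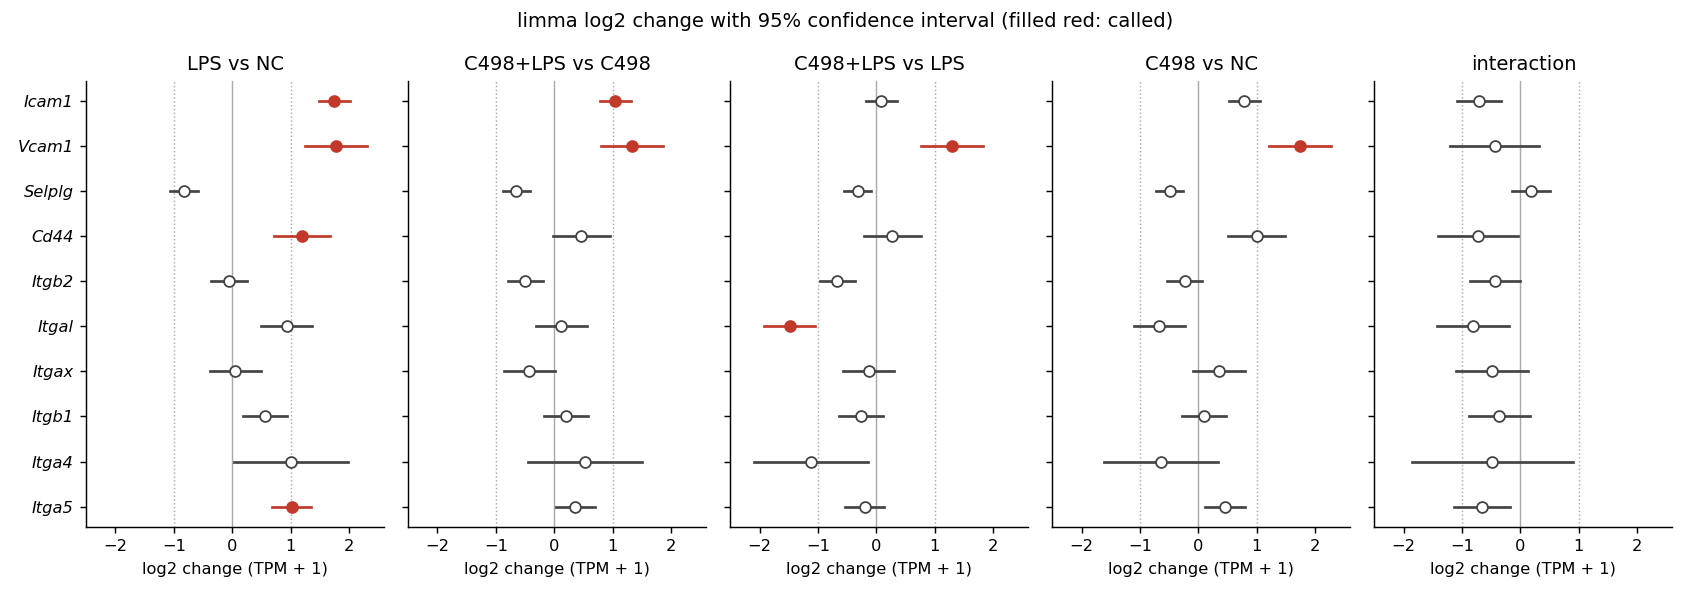
limma log2 change of TPM + 1 (horizontal axes) with its 95% confidence interval for each of the 10 genes in the 4 pairwise comparisons and the interaction of C498 and LPS, where filled red points are called and dotted lines mark the fold threshold. Vcam1 was called in all 4 pairwise comparisons, Icam1 in both LPS responses and Itgal in C498+LPS vs LPS, and none of the 10 was called for the interaction.

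The interaction asks whether the LPS response differed between C498-treated and vehicle-treated cells. None of the 10 was called by limma, beside 0.468% of all genes, and 5 had an unadjusted p under 0.05 (Icam1, Itga5, Itgal, Cd44 and Itgb2), beside 11.1% of all genes. The value was negative, meaning a log2 change with LPS that was lower after C498 than after vehicle, in 9 of the 10. It was positive in Selplg (0.18), and 52.9% of all tested genes were negative. The median over the 10 was -0.48 and over all genes -0.03. For the 4 pairwise comparisons the median log2 change over the 10 was 0.97 in LPS vs NC (-0.17 over all genes), 0.28 in C498+LPS vs C498 (-0.18), -0.23 in C498+LPS vs LPS (0.01) and, for C498 vs NC, 0.23 (0.01). Samples of the paired groups did not overlap in 8, 9, 8 and 8 of the 10, beside 61.4%, 66.2%, 62.8% and 57.7% of all genes.

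Other genes of adhesion were read from 7 lists with 113 genes, of which 80 were tested. LPS vs NC had 11 upregulated and 7 downregulated, C498+LPS vs C498 had 2 and 6, C498+LPS vs LPS had 10 and 2, and C498 vs NC had 9 and 3. In that order the called share of the 80 genes was 22.5%, 10%, 15% and 15%, beside 12.2%, 5.64%, 7.57% and 7.0% of all tested genes, and the median log2 change was -0.08, -0.16, 0.01 and 0.15, beside -0.17, -0.18, 0.01 and 0.01. None was called for the interaction. Among 9 tested of 21 other integrin chains, LPS vs NC raised Itgb8 (log2 change 1.84, adjusted p = 0.00177), whose product with αV activates latent TGF-β, and Itgav, and lowered Itgb5 (-1.38, adjusted p = 0.000165), another αV partner. Itgb8 was low, at 0.16 and 0.11 TPM in NC and 3.51 and 2.65 TPM in LPS. Other list genes named here and below were also low. Has1 stood at 0.18 TPM or less in NC. Itga9, Jam3, Cd34, Tnc, Lama5, Lamb2 and Tnfaip6 stood at 2 TPM or less in all NC and LPS samples. Among the 9 tested integrin chains, Itga9 alone was called in C498+LPS vs LPS (log2 change 1.02, adjusted p = 0.0341). None of these chains was called in C498+LPS vs C498 or C498 vs NC. Their called share was 33.3% for LPS vs NC, beside 12.2% of all genes. For C498+LPS vs LPS it was 11.1%, beside 7.57%. Itgav, which can pair with β1 as well as with β5 and β8, made up 26.4% and 25.4% of the summed TPM of 12 β1-pairing α genes in NC, 31.2% and 28.6% in LPS, 33.0% and 33.2% in C498, and 41.9% and 38.7% in C498+LPS.

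Among 8 tested of 13 immunoglobulin-like adhesion receptors, F11r, the gene of the junctional molecule JAM-A, was upregulated in LPS vs NC (log2 change 1.32, adjusted p = 0.0186), in C498+LPS vs LPS (1.47, adjusted p = 0.02) and also in C498 vs NC (1.84, adjusted p = 0.0106). Alcam was upregulated in LPS vs NC (1.25, adjusted p = 0.0064) and Jam3 in C498+LPS vs LPS (1.43, adjusted p = 0.0165), and none of the list was called in C498+LPS vs C498. Of 10 tested of 17 genes of selectins, mucins and their glycosylation, Gcnt1, an enzyme that builds the branched sugars on which PSGL-1 binds selectins, fell in LPS vs NC (-2.16, adjusted p = 0.000886) and again in C498+LPS vs C498 (-1.05, adjusted p = 0.0276). Tpst1, which sulfates tyrosines of PSGL-1, rose in LPS vs NC (1.29, adjusted p = 0.000236). The mucin Cd34 was upregulated in C498+LPS vs LPS (1.14, adjusted p = 0.0271) and the mucin Spn, or CD43, was downregulated (-1.01, adjusted p = 0.0117), and Cd34 was also upregulated in C498 vs NC (1.21, adjusted p = 0.0249). The fibroblast and mesothelial sums were 4.03 and 3.63 times the NC mean in C498 and 3.89 and 3.94 times the LPS mean in C498+LPS, and Itga9, F11r, Jam3 and Cd34 were each upregulated in at least 1 of these comparisons. The part of those sums in these changes was not tested.

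Of 26 tested of 27 genes that activate integrins or link them to actin, 4 were called in LPS vs NC (15.4%, beside 12.2% of all genes). The linker Vcl (vinculin, log2 change 1.41, adjusted p = 0.0152) and Apbb1ip rose, and Rassf5 (-1.41, adjusted p = 0.00282) and Rasgrp2 fell. Apbb1ip, which encodes RIAM, rose also in C498+LPS vs C498 (1.11, adjusted p = 0.0055) and Fermt3, which encodes kindlin-3, a partner of β chain tails in blood cells, fell (-1.15, adjusted p = 0.000717). In C498 vs NC, Vcl rose (1.17, adjusted p = 0.0495) and Rasgrp2 fell (-1.41, adjusted p = 0.00134), and none was called in C498+LPS vs LPS. The called share was 7.69% in C498+LPS vs C498 and also in C498 vs NC, beside 5.64% and 7.0% of all genes. Of the 6 sheddases, which cut adhesion molecules from the surface, Adam8 alone was called and fell in LPS vs NC (-1.21, adjusted p = 0.000324) and again in C498+LPS vs C498 (-1.21, adjusted p = 0.000772). That was 16.7% of the list in each, beside 12.2% and 5.64% of all genes.

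The list with the most calls under C498 was that of matrix ligands. Of 10 tested of 12, 5 were upregulated in C498 vs NC (Fn1, Thbs1, Tnc, Lamb1 and Lamb2) with 1 downregulated (Tgfbi), and 5 were upregulated in C498+LPS vs LPS (Fn1, Tnc, Lama5, Lamb1 and Lamb2) with none downregulated. These were 60% and 50% of the tested list, beside 7.0% and 7.57% of all genes, and its median log2 change was 1.14 and 0.91, beside 0.01 in both. Thbs1, or thrombospondin, rose by a log2 change of 2.55 in C498 vs NC (adjusted p = 0.00447), Tnc, or tenascin C, by 2.07 in C498+LPS vs LPS (adjusted p = 0.00415), and the laminin chain gene Lamb1 by 1.78 and 1.86 (adjusted p = 0.00668 and 0.00451). The fibroblast and mesothelial sums moved the same way in the same comparisons, and their part in these calls was not tested. Under LPS vs NC, where those sums were 1.15 and 1.04 times the NC mean, Thbs1 rose (1.51, adjusted p = 0.0155) and Tgfbi fell (-1.87, adjusted p = 0.000176). The number of matrix calls rested on single samples, at 1 without LPS replicate 2 in C498+LPS vs LPS and at 1 without C498 replicate 2 in C498 vs NC.

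Of 11 tested of 17 genes of hyaluronan and CD44 partners, Has1, a hyaluronan synthase, rose in LPS vs NC (log2 change 2.32, adjusted p = 0.000794) and again in C498+LPS vs C498 (1.61, adjusted p = 0.0075). Hyal1, which degrades hyaluronan, fell in both (-1.56, adjusted p = 0.0026, and -1.57, adjusted p = 0.00522). Tnfaip6, whose product TSG-6 binds hyaluronan and alters its binding to CD44, rose with C498, by 1.40 in C498 vs NC (adjusted p = 0.012) and by 1.69 in C498+LPS vs LPS (adjusted p = 0.00491), alongside the same fibroblast and mesothelial sums, whose part in it was not tested. Stab1, the gene of a scavenger receptor, fell in both (-1.01, adjusted p = 0.0238, and -1.06, adjusted p = 0.0177). In this list 4 genes were called in LPS vs NC, 3 in C498+LPS vs C498 and 2 in each of the C498 comparisons, or 36.4%, 27.3%, 18.2% and 18.2% of those tested, beside 12.2%, 5.64%, 7.57% and 7.0% of all genes.

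**Figure D5:**
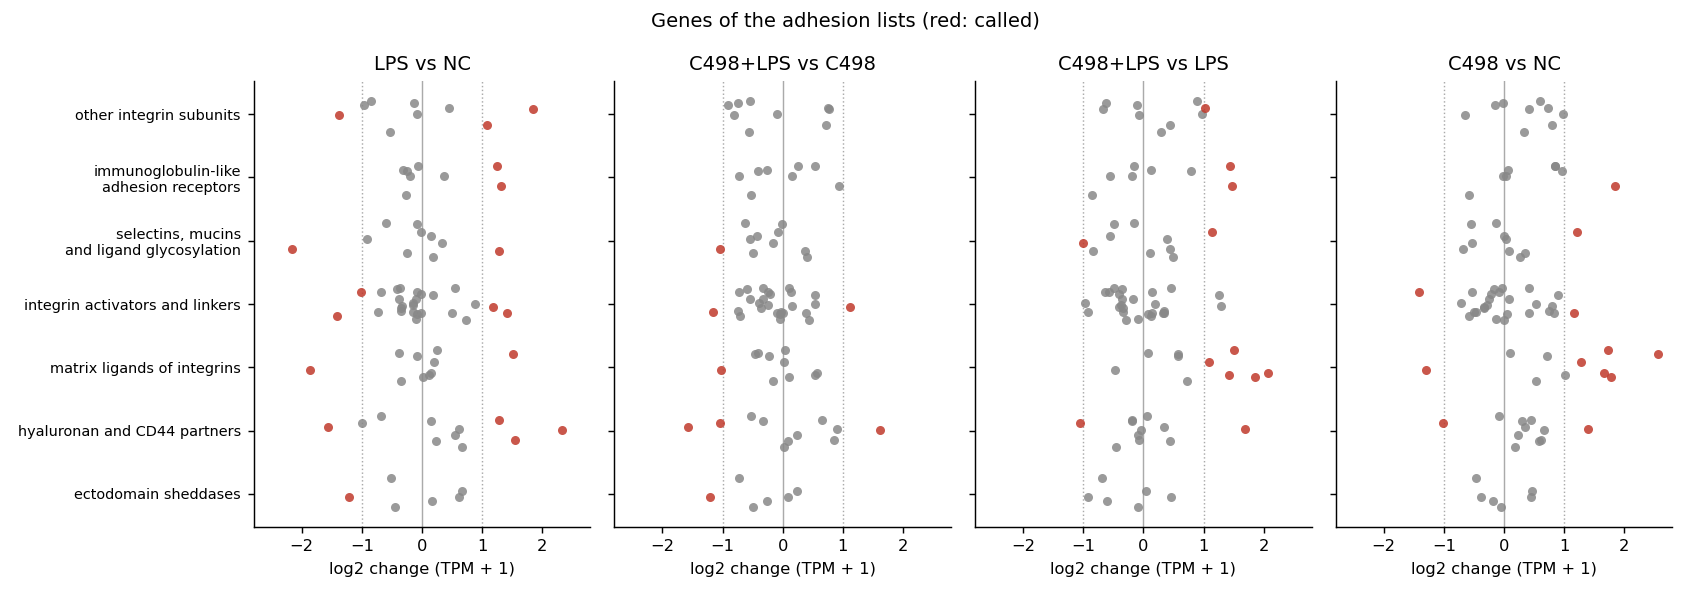
limma log2 change of TPM + 1 (horizontal axes) of every tested gene of the 7 adhesion lists (rows, with points spread vertically only to separate them) in the 4 pairwise comparisons, where red points are called and dotted lines mark the fold threshold. Matrix ligands held 5 upregulated genes in each of the C498 comparisons, and integrin activators had no called gene in C498+LPS vs LPS.

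For the 7 members whose group means spanned at least 1 on the log2 scale, the 3 genes most alike over the 8 samples were found by Pearson's r of log2(TPM + 1) among genes whose mean TPM was 5 or more, as a description over samples that share 4 treatments. Icam1 was most like Ccnd2 (r = 0.998), Casp4 (0.997) and Nfkbiz (0.997). Nfkbiz, which encodes a nuclear IkappaB protein, stood at 9.33 and 6.09 TPM in NC, 118 and 98.6 TPM in LPS, 26.5 and 24.2 TPM in C498, and 134 and 114 TPM in C498+LPS, the same order of groups as Icam1. Vcam1 was most like Pkmyt1 (0.996), Btf3 (0.994) and F3 (0.991), and F3, which encodes tissue factor, stood at 1.86 and 0.98 TPM in NC and 24.4 and 26.6 TPM in C498+LPS. Itgal was most like Mmp14 (0.994), Tnfrsf14 (0.992) and Dbnl (0.988). Mmp14, a membrane-bound matrix protease, stood at 460 and 345 TPM in NC, 646 and 580 TPM in LPS, 307 and 305 TPM in C498, and 357 and 295 TPM in C498+LPS, again highest in LPS.

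Itga5 was most like Pfkp (0.994), Usp42 (0.991) and Cd274 (0.991), the last being the gene of PD-L1. Cd44 was most like Txnrd1 (0.994), Csnk2a2 (0.994) and Aebp2 (0.992). Selplg was most like Mospd3 (0.997), Plekho1 (0.996) and Oma1 (0.996), all lowest in C498+LPS. Itga4 was most like Rnf141 (0.990), Cpsf2 (0.986) and Spryd4 (0.979), which share with it the higher value of NC replicate 1, as 20.1 against 12.9 TPM for Rnf141.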

How the data were processed

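Total RNA was isolated, and its mRNA was fragmented and sequenced as paired-end libraries on an Illumina NovaSeq. Per the labels and methods, the authors used fastp to filter the reads, HISAT2 for alignment, StringTie for assembly and RSEM for quantification, and deposited TPM values per gene and sample, together with group means and annotation. Aligner versions, genome build and annotation are not given in the sources used here. TPM keeps no depth, so the counts test of the study (DESeq2) was not run. All 8 samples were used, and grouped by their treatment labels.

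Values were taken as log2(TPM + 1), 12189 genes whose mean TPM was 1 or more were fitted with limma 3.58.1 in R 4.3.3 with 1 mean per group and a variance trend, and p was adjusted (Benjamini-Hochberg) within a comparison. The code was tested on simulated data. The members, gene lists, markers and tests were chosen with earlier results of these data known. Named genes are the 10 members, Itgam, Fn1, up to 2 called genes with the largest change per adhesion list and comparison whose samples did not overlap, and the 3 most alike genes per member. Itgav, Apbb1ip and Rasgrp2 in LPS vs NC, Lamb2 and Tnc in C498 vs NC, and Lama5 and Lamb2 in C498+LPS vs LPS were named as called members of small lists after their values were seen. Alternatives were another pseudocount (0.1), no filter or a minimum mean of 5 TPM, centring on the median gene, quantile normalization, fitting the compared groups alone, dropping the variance trend, a replicate block, no fold threshold, and each sample left out. Promoter sequences are from RefSeq on GRCm38.p6.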

Additional observations from a re-analysis of the deposited data

Results flagged for a closer look

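Itga5 was picked out because its C498-treated samples lay above the vehicle-treated ones without LPS and below them with LPS. Both C498 samples (91.0 TPM) lay above both NC samples (75.0 and 58.7 TPM), whereas both C498+LPS samples (122 and 112 TPM) lay below both LPS samples (148 and 123 TPM). Neither difference passed limma's adjusted p on its own, with a log2 change of 0.45 in C498 vs NC (adjusted p = 0.0773) and -0.20 in C498+LPS vs LPS (95% interval -0.54 to 0.13, adjusted p = 0.394), the latter at -0.067 without LPS replicate 1. The difference between the 2 effects, the interaction, was -0.65 on the log2 scale with an adjusted p of 0.31 by limma, so it did not pass the threshold over all genes.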

How the results depend on the processing

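Of the 790 log2 changes of the 10 genes under the alternatives, 751 kept their direction and side of the threshold, 16 passed it anew, 13 no longer passed it and 10 turned in sign, all 10 uncalled. Of 84 member counts, 68 stayed within 1.5 times, and of 588 counts in the adhesion lists, 454.

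The number of members called in LPS vs NC was 4. It was 6 with centring on the median gene (adding Itga4 and Itgal), 4 with quantile normalization (adding Itga4 and losing Itga5), 7 with no fold threshold, and it ranged from 2 to 6 when each sample was left out, with 2 (Icam1 and Vcam1) without NC replicate 2 or LPS replicate 1 and 6 without NC replicate 1. In C498+LPS vs C498 it was 2, 4 with no fold threshold, and 1 to 2 with a sample left out. In C498+LPS vs LPS it was 2, 3 with centring or quantile normalization (adding Itga4), and 1 to 3 with a sample left out. In C498 vs NC it was 1, 2 with a pseudocount of 0.1 or quantile normalization (adding Cd44), 0 with only the groups compared, 4 with no fold threshold, and 1 to 2 with a sample left out. Log2 changes turned in sign with centring for Itgb1 in C498 vs NC (-0.024) and Itgb2 in LPS vs NC (0.11). With each sample left out, those that turned ranged from -0.056 to 0.22 for Icam1 and -0.37 to 0.11 for Itgax in C498+LPS vs LPS, from -1.32 to 0.033 for Itga4 and -0.13 to 0.32 for Itgb1 in C498 vs NC, from -1.16 to 0.19 for the interaction of Itga4, from -0.088 to 0.33 for Itgal in C498+LPS vs C498, and from -0.13 to 0.23 for Itgax and -0.22 to 0.098 for Itgb2 in LPS vs NC. The causes were not tested.

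With the replicate number as a block, LPS vs NC had 5 called members and C498+LPS vs LPS had 3, each with Itga4 added, while C498+LPS vs C498 had 2, C498 vs NC had 1 and the interaction 0. Deviations of same-numbered samples correlated across genes at 0.168, 0.135 and 0.102 between NC and LPS, C498 and C498+LPS, and at 0.0397 to 0.0417 between the other groups, so not every pair passed 0.1 and the samples were taken to share only a number. All 3 pairs over 0.1 hold NC. Replicate 1 was the higher sample in 9 of the 10 members in NC, 10 in LPS, 7 in C498 and 8 in C498+LPS.

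Each group had 2 samples, and the depth behind the TPM values is unknown, so counting noise was seen only through the spread between replicates.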
